A study of Mus musculus with 6 samples.

Results

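Chemokines of the CC and CXC classes, together with the CX3C chemokine Cx3cl1, were examined in C2C12 cells, a mouse myoblast line that forms myotubes in low serum. The 10 genes were taken by name, as Cxcl10 and Ccl5, whose transcription is driven by interferon signaling, and as 8 chemokines mostly driven by other signals. A transcript was listed for 9 of them, among 11835 genes in all, and Cxcl12, a homeostatic chemokine, had none and was not analysed here. The levels are FPKM (fragments per length of transcript and number of mapped fragments) summed over the transcripts of a gene.

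The siNC group held 3 C2C12 cultures transfected with NC siRNA, and the siCNN3 group held 3 transfected with CNN3 siRNA against the actin-binding protein calponin 3. Both groups came from the same line, were kept in growth medium and then in medium with horse serum, and are labelled as myotubes. According to the methods, cultures for differentiation were transfected once more after the first transfection. The sources do not say which of the designed CNN3 siRNAs the sequenced cultures received. They also do not say that replicates were started on separate days, so p-values measure only the spread between these libraries. Cnn3, the targeted gene, was at 62.8, 61.4 and 62.8 FPKM in the siNC cultures, against 19.04, 39.2 and 25.6 FPKM in the siCNN3 cultures. The siCNN3 libraries were all lower, at 44.8% of the siNC mean (adjusted p = 0.0669, limma, not called; exact permutation p = 0.1, the smallest that 3 against 3 allows).

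Chemokines are small secreted proteins that guide migrating leukocytes through G-protein-coupled receptors. Their classes are named after the spacing of the first cysteines of the mature protein, and CXC chemokines with the tripeptide glutamate, leucine and arginine before these cysteines attract neutrophils. Transcription of Cxcl10 and Ccl5 is known to follow interferon regulatory factors and NF-κB, whereas Cxcl1, Cxcl5, Ccl2 and Ccl7 are best known as targets of NF-κB. Muscle cells and other non-immune cells can make chemokines during injury and infection.

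The coding bases around the first cysteines are shown to define the classes of the 9 genes. They were read from the most abundant listed transcript of each gene in GENCODE M21 (build GRCm38), 5′ to 3′ on the coding strand, with the 2 cysteine codons in capitals. Each window lies within 1 coding exon, exon 3 for Ccl9 and exon 2 for the other 8.
Ccl5, chr11:83529224-83529265, - strand: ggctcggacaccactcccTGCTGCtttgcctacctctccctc
Ccl4, chr11:83663464-83663505, + strand: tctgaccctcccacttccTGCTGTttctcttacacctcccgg
Ccl2, chr11:82036488-82036529, + strand: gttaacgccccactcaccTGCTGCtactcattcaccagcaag
Ccl7, chr11:82046520-82046561, + strand: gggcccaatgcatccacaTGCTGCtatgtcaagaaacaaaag
Ccl9, chr11:83575908-83575949, - strand: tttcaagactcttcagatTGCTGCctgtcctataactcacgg
Cxcl10, chr5:92348163-92348207, - strand: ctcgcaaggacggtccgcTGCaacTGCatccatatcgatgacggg
Cxcl1, chr5:90891478-90891522, + strand: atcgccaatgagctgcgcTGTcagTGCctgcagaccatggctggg
Cxcl5, chr5:90759709-90759753, + strand: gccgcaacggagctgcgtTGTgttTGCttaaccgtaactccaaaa
Cx3cl1, chr8:94778033-94778083, + strand: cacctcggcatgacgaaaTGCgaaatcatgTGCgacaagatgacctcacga
The cysteine codons are adjacent in the 5 CC genes, 1 codon apart in Cxcl10, Cxcl1 and Cxcl5, and 3 codons apart in Cx3cl1. Translation of these windows gave the glutamate, leucine and arginine tripeptide before the first cysteine in Cxcl1 and Cxcl5 and not in Cxcl10.

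Regions upstream of Cxcl10 and Cxcl1, an interferon-driven and an NF-κB-driven chemokine on the same chromosome, are shown because Cxcl10 rose after knockdown and Cxcl1 was not called, and were thus chosen by their outcome. The bases were taken from RefSeq (build GRCm38) and run from 250 to 11 bases before the start site, 5′ to 3′ on the gene's strand. Capitals mark the core of the interferon-stimulated response element (ISRE), GAAANNGAAA or its reverse complement TTTCNNTTTC, and the NF-κB consensus on either strand.
Cxcl10, chr5:92348900-92349139, - strand: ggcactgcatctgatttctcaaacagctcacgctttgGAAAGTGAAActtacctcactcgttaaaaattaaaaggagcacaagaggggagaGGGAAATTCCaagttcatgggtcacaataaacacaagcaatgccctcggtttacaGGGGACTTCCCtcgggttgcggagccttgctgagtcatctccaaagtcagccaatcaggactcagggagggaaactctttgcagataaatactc
Cxcl1, chr5:90890995-90891234, + strand: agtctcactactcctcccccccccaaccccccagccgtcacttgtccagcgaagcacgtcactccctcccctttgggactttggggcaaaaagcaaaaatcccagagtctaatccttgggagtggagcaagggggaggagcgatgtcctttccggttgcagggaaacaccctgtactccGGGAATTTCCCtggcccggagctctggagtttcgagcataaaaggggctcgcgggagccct
In Cxcl10 the ISRE core lay at -213 to -204 from the start site, and the NF-κB consensus matched at -159 to -150 and, in 2 overlapping matches, from -104 to -94. In Cxcl1 there was no ISRE core in the window, and the NF-κB consensus matched from -71 to -61, also in 2 overlapping matches. RefSeq windows of 300 bases, which reach 50 bases past the start site, were at hand for 4 of the 9 genes. Ccl9 had 1 NF-κB match at -35 to -26, and Cx3cl1 had neither motif. Of all 17 listed ligand genes 10 had a window. Ccl8 and Cxcl9, ligands described below that were also called higher, had neither motif in theirs. Among all 32851 RefSeq windows of that length, 3.44% held the ISRE core and 8.46% the NF-κB consensus. A match is a description of the letters, and binding was not measured.

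**Figure D1:**
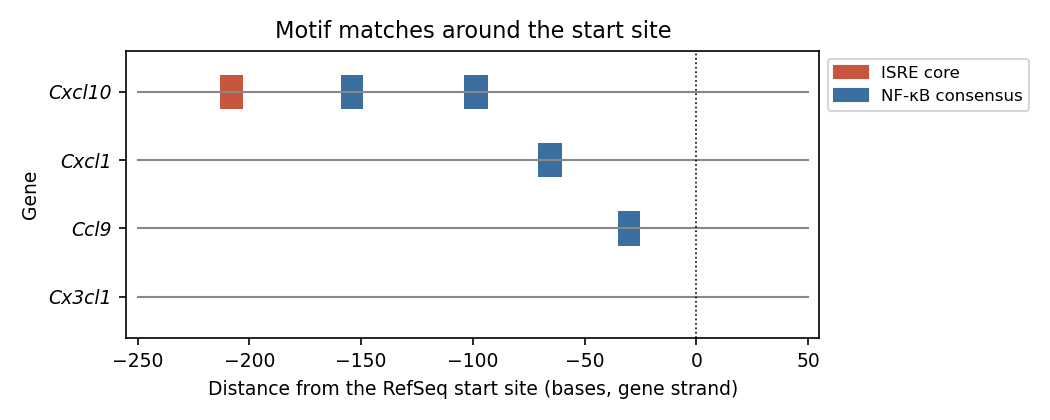
Motif matches in the windows around the RefSeq start sites of the 4 chemokine genes with an entry, by distance from the start site in bases. Red boxes are ISRE cores and blue boxes are matches to the NF-κB consensus. Only Cxcl10, of these 4 genes, held an ISRE core, and Cxcl10, Cxcl1 and Ccl9 held NF-κB matches.

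In the siCNN3 group Cxcl10 and Ccl5, which attract lymphocytes, Ccl4 and the monocyte chemokine Ccl7 rose, and the neutrophil chemokines Cxcl1 and Cxcl5 were not called. Cxcl10 and Ccl5 had log2 fold changes of 6.30 and 5.41, and the 7 other genes ranged from -0.96 to 3.13 with a median of 0.91. The gap to Ccl4, the highest of the 7, depends on the value added before the logarithm, since with 0.1 in place of 1 Ccl5 was at 5.56 and Ccl4 at 5.30. Of the 9 genes, 4 were called higher (Cxcl10, Ccl5, Ccl4 and Ccl7) and 0 were called lower. A gene was called where its Benjamini-Hochberg adjusted p from limma was below 0.05. Among all 11593 genes tested, 1.73% were called higher and 0.336% lower. Ccl4 passed the filter (a mean of 0.5 FPKM over all libraries) only through the siCNN3 group, so it had to be higher there, and 3 of the 8 other genes were called higher. Over all genes, 161 passed only in that way, of which 29 were called higher. At an unadjusted limma p below 0.05, 5 of the 9, Ccl4 among them, were higher and 1, Ccl9, was lower. Over all 11593 genes, 1152 were higher and 712 lower at that threshold. The siCNN3 values all lay above the siNC values for 5 of the 9 genes, again with Ccl4 among them, and below them for 1. The shares of all genes were 13.8% and 9.35%. The median log2 fold change was 1.35 over the 9 genes, Ccl4 included, and 0.03 over all genes. Because 1 was added to each FPKM before the logarithm, the log2 fold changes of weakly expressed genes are too small. A higher level in bulk RNA can come from more cells that make a chemokine or from more RNA per cell, and these cannot be told apart here.

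**Figure D2:**
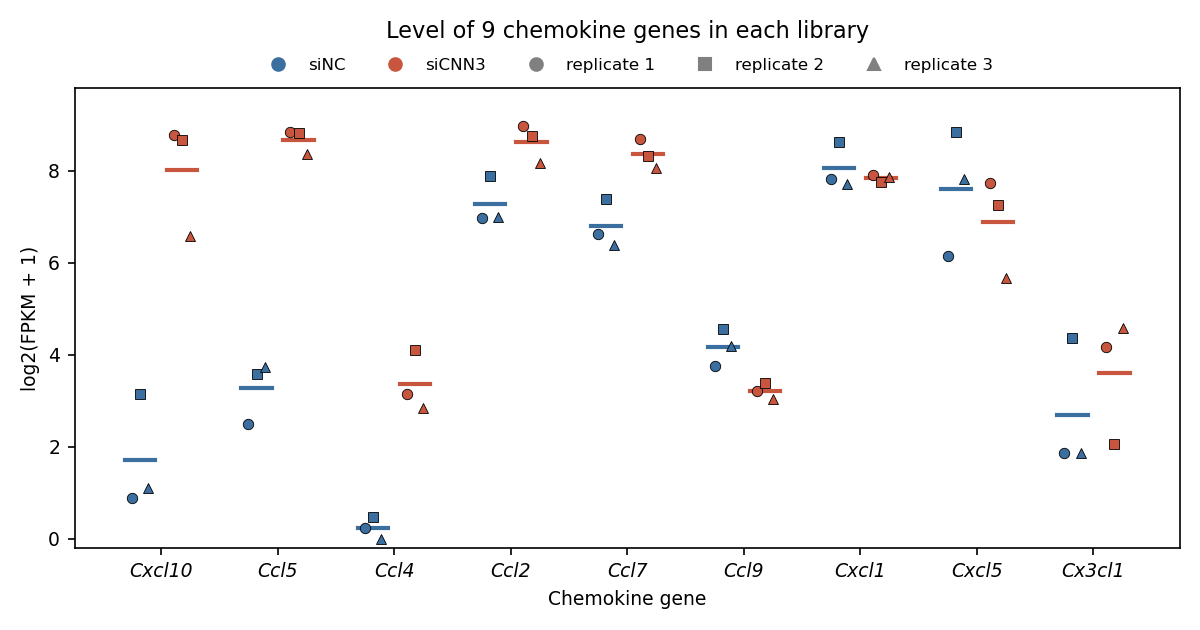
Level of the 9 chemokine genes in each library as log2(FPKM + 1). Symbols are replicates, colors are groups, and bars are group means. The groups did not overlap for Cxcl10, Ccl5, Ccl4, Ccl2, Ccl7 and Ccl9, and they overlapped for Cxcl1, Cxcl5 and Cx3cl1.

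Some libraries stood apart within their group. siNC replicate 2 had the highest siNC value for 8 of the 9 genes, all except Ccl5, and siCNN3 replicate 3 had the lowest siCNN3 value for 7, all except Cxcl1 and Cx3cl1. Each library was left out in turn, and calls that changed are given beside the gene.

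Cxcl10 encodes the ligand of the receptor CXCR3 on activated T cells and natural killer cells (chromosome 5 of GRCm38, 92346638 to 92348889, minus strand). It was at 0.846, 7.90 and 1.14 FPKM across siNC replicates 1 to 3, against 438, 409 and 95.4 FPKM across the siCNN3 replicates. The lowest siCNN3 library was thus far above the highest siNC library, and the spread within each group was wide. Its mean was 3.29 ± 3.99 FPKM in the siNC cultures and 314 ± 189.9 FPKM in the siCNN3 cultures (SD, n = 3), a ratio of 95.4, or 317 without siNC replicate 2. The log2 fold change was 6.30 (standard error 0.78, adjusted p = 0.0152, limma). Of the fits with 1 library left out, those without siNC replicate 2 and without siCNN3 replicate 3 kept the call, and the other 4 lost it, with an adjusted p of up to 0.0853. By mean FPKM, Cxcl10 was gene 9116 of 11593 in siNC and gene 165 in siCNN3.

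Ccl5, which attracts T cells and monocytes (chromosome 11, 83525778 to 83530518, minus strand), measured 4.67, 11.03 and 12.3 FPKM in the siNC cultures, against 461, 454 and 328 FPKM in the siCNN3 cultures. The groups were far apart relative to their spread, with means of 9.32 ± 4.07 and 414 ± 75.0 FPKM (SD, n = 3) and a ratio of 44.5. Its log2 fold change was 5.41 (standard error 0.33, adjusted p = 0.00354, limma). Ccl5 was called with each library left out in turn (adjusted p up to 0.0280). It was gene 5886 by mean FPKM in the siNC cultures and gene 112 in siCNN3.

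Ccl4, another chemokine of T cells and monocytes (chromosome 11, 83662584 to 83664683, plus strand), measured 0.175, 0.381 and 0 FPKM in the siNC cultures, against 7.82, 16.1 and 6.21 FPKM in the siCNN3 cultures. The means were 0.185 ± 0.191 and 10.05 ± 5.32 FPKM (SD, n = 3), a ratio of 54.3 that rests on siNC values near 0 and was 115 without siNC replicate 2. The log2 fold change was 3.13 (standard error 0.33, adjusted p = 0.0099, limma), and it was 5.30 with a pseudocount of 0.1. The call was lost without siNC replicate 3, the library listed at 0 (adjusted p = 0.0655). Even in siCNN3 Ccl4 was gene 5798 by mean FPKM, far below Ccl5.

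**Figure D3:**
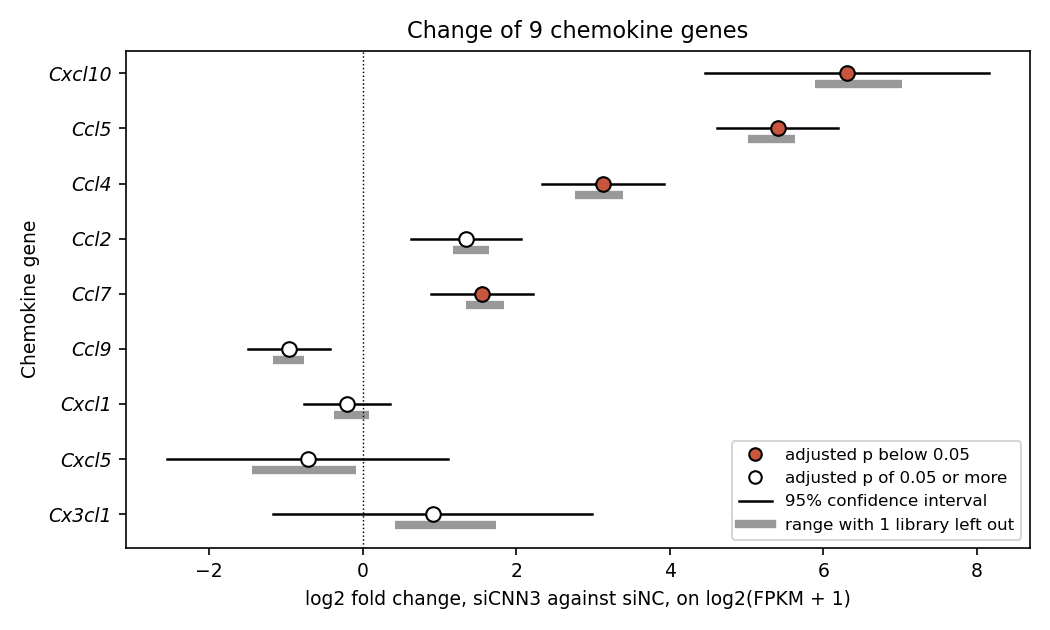
Log2 fold change of each chemokine gene between siCNN3 and siNC on the log2(FPKM + 1) scale. Circles are estimates from limma, filled where the adjusted p was below 0.05, black lines are 95% confidence intervals, and grey bars are the range with 1 library left out. Cxcl10, Ccl5 and Ccl4 lay highest, and the intervals of Cxcl1, Cxcl5 and Cx3cl1 included 0.

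Ccl2 and Ccl7, neighbouring genes on chromosome 11, encode CCR2 ligands that attract monocytes. Unlike Cxcl10, both were already abundant in siNC. Ccl2 (82035571 to 82037453, plus strand) measured 125, 235 and 126 FPKM in the siNC cultures, against 503, 431 and 287 FPKM in the siCNN3 cultures. The groups did not overlap, though the highest siNC and the lowest siCNN3 library were close, and the ratio of the means was 2.51. Ccl2 was not called, as its log2 fold change of 1.35 (95% interval 0.63 to 2.07) had an adjusted p of 0.0852 (limma). It was called without siNC replicate 2 (adjusted p = 0.0385) or siCNN3 replicate 3 (adjusted p = 0.0430).

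Ccl7 (82045712 to 82047525, plus strand) measured 98.6, 167 and 82.9 FPKM in the siNC cultures, against 414, 318 and 267 FPKM in the siCNN3 cultures, again without overlap. Its means were 116 ± 44.6 and 333 ± 74.4 FPKM (SD, n = 3), a ratio of 2.87. The log2 fold change of 1.55 (standard error 0.28) was just past the threshold (adjusted p = 0.0492, limma). The call was kept without siNC replicate 2 or siCNN3 replicate 3, and it was lost without any of the other 4 libraries (adjusted p up to 0.169) and with a pseudocount of 0.1 (adjusted p = 0.0501), quantile normalization (adjusted p = 0.0662), no mean-variance trend (adjusted p = 0.0605), removal of transcripts with failed estimates (adjusted p = 0.0512) or the replicate number as a block (adjusted p = 0.0736). It was called in 5 of 15 alternatives. Although Ccl7 was called and Ccl2 was not, their values moved together from library to library, and the ratio of Ccl2 to Ccl7 was between 1.07 and 1.52 in the 6 libraries (exact permutation p = 0.2).

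Ccl9, a CCR1 ligand best known from myeloid cells (chromosome 11, 83572919 to 83578636, minus strand), was the only one of the 9 genes whose siCNN3 values all lay below the siNC values. It was at 12.5, 22.7 and 17.3 FPKM in the siNC cultures, against 8.20, 9.45 and 7.27 FPKM in the siCNN3 cultures. The mean was 47.4% of the siNC mean, and the log2 fold change was -0.96 (standard error 0.22, 95% interval -1.49 to -0.43, adjusted p = 0.0914, limma, not called). After quantile normalization Ccl9 was called (adjusted p = 0.0449).

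Cxcl1 and Cxcl5 encode CXCR2 ligands that attract neutrophils, and they had the highest siNC means of the 9 genes. In siNC replicate 1, however, Cxcl5 was below Ccl2 and Ccl7. Cxcl1 (chromosome 5, 90891241 to 90893115, plus strand) measured 224, 396 and 209.6 FPKM in the siNC cultures, against 241, 216 and 232 FPKM in the siCNN3 cultures. The siCNN3 libraries lay within the siNC range and close to each other. Its log2 fold change was -0.21 with a 95% interval of -0.77 to 0.36 (adjusted p = 0.720, limma), and it was 0.084 without siNC replicate 2. That interval does not reach a rise of 1 on the log2 scale, while the intervals of Cxcl10 (4.46 to 8.15) and Ccl5 (4.62 to 6.20) lay wholly above 4.

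Cxcl5 (chromosome 5, 90759360 to 90761624, plus strand) varied widely within both groups. It was at 69.6, 461 and 225 FPKM in the siNC cultures, against 214, 151 and 50.1 FPKM in the siCNN3 cultures. The log2 fold change was -0.71 with a 95% interval of -2.54 to 1.11 (adjusted p = 0.696, limma), so that changes in either direction are within the error. It was -0.091 without siNC replicate 2, -0.11 without siCNN3 replicate 3 and -1.45 without siNC replicate 1, also not called. Cx3cl1 encodes fractalkine, a membrane-anchored chemokine that is released by the proteases ADAM10 and ADAM17 (chromosome 8, 94772009 to 94782427, plus strand). It was at 2.65, 19.5 and 2.62 FPKM in the siNC cultures, against 17.01, 3.19 and 22.9 FPKM in the siCNN3 cultures. High and low libraries occurred in both groups, and the log2 fold change of 0.91 had a 95% interval of -1.17 to 2.98 (adjusted p = 0.655, limma). With 1 library left out it ranged from 0.42 without siCNN3 replicate 3 to 1.74 without siNC replicate 2, and it was not called in these fits.

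At the level of transcripts, 11 were listed for the 9 genes, and 3 were called higher when each transcript was tested on its own among 21658 (limma, Benjamini-Hochberg), compared with 0.462% of all transcripts called higher. They were Ccl5-201 (adjusted p = 0.0131), Ccl4-201 (adjusted p = 0.0384) and Cxcl10-201 (adjusted p = 0.0464). With 1 library left out, between 0 and 4 transcripts of these genes were called, and 0 with the replicate number as a block. Cxcl10-202 was at 0.029, 0.262 and 0.092 FPKM in the siNC cultures, against 4.05, 3.50 and 0.595 FPKM in the siCNN3 cultures, and Cxcl10-201 held most of the FPKM of the gene in each library. Ccl7-201, the only listed transcript of Ccl7, was not called in this larger set of tests (adjusted p = 0.114), although its values are those of the gene. The wide range of Cx3cl1 came with Cx3cl1-201, at 1.83, 19.5 and 2.41 FPKM in the siNC cultures and 16.01, 2.33 and 21.97 FPKM in the siCNN3 cultures. Cx3cl1-205 was at 0 FPKM in siNC replicate 2 and between 0.215 and 1.00 FPKM in the other 5 libraries.

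The make-up of the chemokine RNA differed between the groups. FPKM is scaled by transcript length, so levels of different genes can be added. Summed over the 9 genes it was 539, 1320.5 and 677 FPKM in the siNC cultures and 2304, 2009 and 1296 FPKM in the siCNN3 cultures. The sums overlapped, because siCNN3 replicate 3 was below siNC replicate 2. Cxcl10 and Ccl5 made up 1.02%, 1.43% and 1.98% of the sum in siNC and 39.0%, 43.0% and 32.7% in siCNN3, with no overlap. The CXCR2 ligands Cxcl1 and Cxcl5 made up 54.5% to 64.9% in siNC and 18.3% to 21.8% in siCNN3, while their summed FPKM overlapped, at 294 to 857 and 282 to 455. The CCR2 ligands Ccl2 and Ccl7 had a similar share in both groups, 30.5% to 41.6% and 37.3% to 42.8%. In FPKM, the 2 interferon-driven genes summed to 5.51 to 18.9 in siNC and 423 to 899 in siCNN3, and the 7 others to 533 to 1302 and 873 to 1405, which overlapped.

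**Figure D4:**
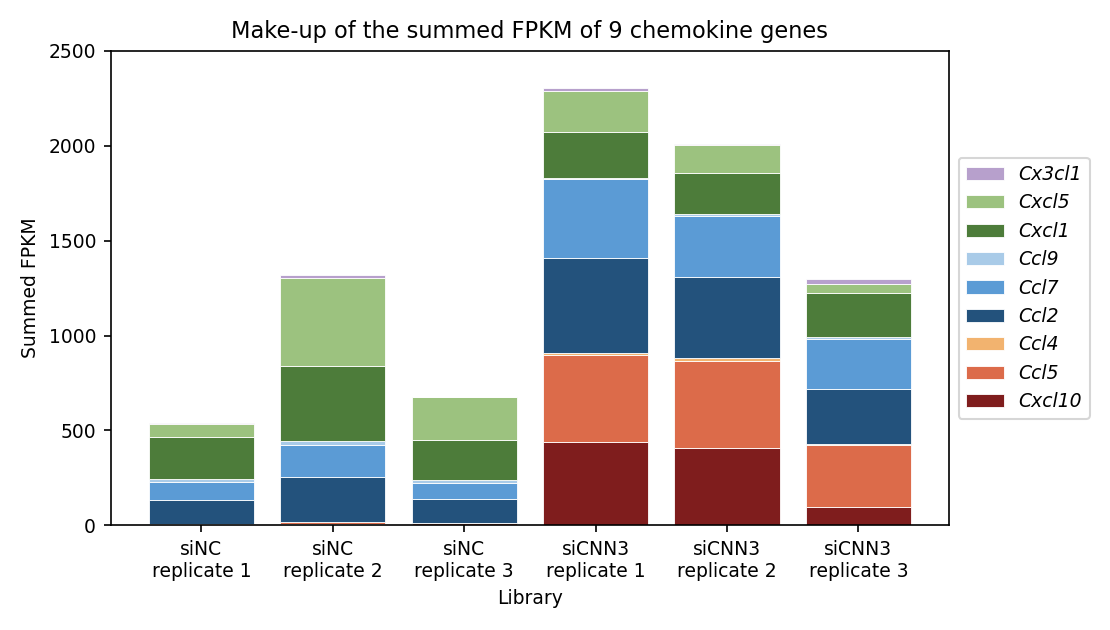
Summed FPKM of the 9 chemokine genes in each library, with each gene as a segment. Cxcl10 and Ccl5, the lowest red and orange segments, are at most 18.9 FPKM together in siNC and at least 423 FPKM in the siCNN3 cultures.

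Ratios within a library do not depend on its scaling. Ccl5 was at 0.037, 0.047 and 0.097 times Ccl2 in siNC and at 0.92, 1.05 and 1.14 times Ccl2 in siCNN3. Cxcl10 was at 0.0038 to 0.0199 times Cxcl1 in siNC and at 1.81, 1.89 and 0.41 times Cxcl1 in siCNN3. Ccl2 itself was at 0.56 to 0.60 times Cxcl1 in siNC and at 1.24 to 2.08 times Cxcl1 in siCNN3. None of these 3 ratios overlapped between the groups (exact permutation p = 0.1 for each, the smallest possible). The ratio of Cxcl10 to Ccl5 ranged from 0.093 to 0.716 in siNC and from 0.291 to 0.949 in siCNN3 and overlapped.

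Genes with the most similar profile were found by the root mean square distance over the 6 libraries between log2(FPKM + 1) values, after each gene's siNC mean was subtracted. For Cxcl10 they were Iigp1 (distance 0.51), Ifit3b (0.75) and Tgtp2 (0.82), all known as interferon-induced genes. For Ccl5 they were Ifi205 (0.59), Zbp1 (0.59) and Oas1a (0.63), which are also known to be induced by interferon. For Ccl4 the nearest were Tap1 (0.15), a peptide transporter of antigen presentation, Il18bp (0.29) and AA467197 (0.36).
For Ccl2 the nearest were Tapbp (0.11), which loads peptides on class I molecules, Vnn1 (0.16) and AW011738 (0.17), and Ccl7 was at 0.19. For Ccl7 the nearest were AW011738 (0.15), Ccl2 (0.19) and Apol7a (0.20). Ccl9 was nearest to Myog (0.09), a myogenic transcription factor, Emilin1 (0.09) and Cbr2 (0.11). Cxcl1 was nearest to B9d2, Dph3 and Atp8b2 (0.09 to 0.10), none of which was called. Cxcl5 and Cx3cl1 had no gene closer than 0.43 and 0.51. Known induction by interferon was noted only for the neighbours of Cxcl10 and Ccl5, and it was not assessed for those of the other genes. The distances are descriptions over 6 libraries in 2 groups.

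Of 28 other ligand genes in a list of the family, 8 had a transcript listed and 7 were tested. Ccl8 and Cxcl9 were called higher and 0 lower, compared with 1.73% and 0.336% of all genes. Cxcl9, Cxcl11 and Ccl11 passed the filter only through the siCNN3 group, and 1 of the 4 others, Ccl8, was called. Ccl8, a monocyte chemokine in the same cluster as Ccl2 and Ccl7 (chromosome 11, 82115185 to 82116799), measured 5.56, 29.2 and 12.8 FPKM in the siNC cultures, against 139, 112 and 82.1 FPKM in the siCNN3 cultures (log2 fold change 2.97, adjusted p = 0.0442, limma). Cxcl9, a CXCR3 ligand beside Cxcl10 (chromosome 5, 92321347 to 92328079), measured 0.063, 0.362 and 0.113 FPKM in the siNC cultures, against 12.6, 12.2 and 2.69 FPKM in the siCNN3 cultures (log2 fold change 2.89, adjusted p = 0.0428, limma). Both were thus higher in each siCNN3 library. With 1 library left out, Ccl8 was called in 2 of 6 fits and Cxcl9 in 1 of 6 (adjusted p up to 0.172 and 0.170). Cxcl11, a further CXCR3 ligand that was named after its values were seen, was listed at 0 in the siNC libraries and at 2.84, 1.89 and 0.256 FPKM in the siCNN3 cultures (adjusted p = 0.179, limma). The 3 CXCR3 ligands together summed to 0.909 to 8.26 FPKM in the siNC cultures and to 98.4 to 453 FPKM in the siCNN3 cultures. Cxcl10 alone was at 95.4 to 438 FPKM in the siCNN3 cultures and held most of that sum. The 4 other tested ligands, Ppbp, Ccl25, Ccl11 and Ccl17, were not called, with log2 fold changes between -0.41 and 0.16.

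Of 22 receptor genes, 19 had no transcript among those listed, including Ccr1, Ccr2, Cxcr2, Cxcr3 and Cx3cr1, and were not analysed here. Cxcr4, the signaling receptor of Cxcl12, was at 3.25 ± 0.828 FPKM in the siNC cultures and 2.22 ± 0.272 FPKM in the siCNN3 cultures (SD, n = 3; adjusted p = 0.379, limma). Ackr3, a scavenging receptor of Cxcl12, was at 24.8, 17.7 and 26.6 FPKM in the siNC cultures, against 35.8, 39.2 and 48.1 FPKM in the siCNN3 cultures. Its groups did not overlap, and with a log2 fold change of 0.81 it was not called (adjusted p = 0.0914, limma). Ccrl2, an atypical receptor that presents the attractant chemerin, was at 0.187 ± 0.128 FPKM in the siNC cultures and 7.26 ± 4.90 FPKM in the siCNN3 cultures (SD, n = 3), without overlap and not called (log2 fold change 2.53, adjusted p = 0.0795, limma), and it passed the filter only through the siCNN3 group.

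Of 8 genes for the release, trimming and surface binding of chemokines, 7 were listed and tested, 1 was called higher and 0 lower, compared with 1.73% and 0.336% of all genes. The called gene was Sdc3, a heparan sulfate proteoglycan of muscle progenitor cells, at 7.95, 8.06 and 7.96 FPKM in the siNC cultures and 23.7, 22.7 and 17.4 FPKM in the siCNN3 cultures (log2 fold change 1.30, adjusted p = 0.0141, limma). It was called in 3 of 6 fits with 1 library left out (adjusted p up to 0.0825). The more abundant proteoglycans Sdc4, Sdc2 and Gpc1 had log2 fold changes of -0.02, -0.50 and 0.11 and were not called. Of the 7 tested, 1 lay wholly above the siNC values in siCNN3 and 2, Sdc2 and Adam10, wholly below. Over all genes the shares were 13.8% and 9.35%. Adam10 and Adam17, the proteases of fractalkine, named here for that role after their values were seen, were also not called, with log2 fold changes of -0.20 and -0.49.

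**Figure D5:**
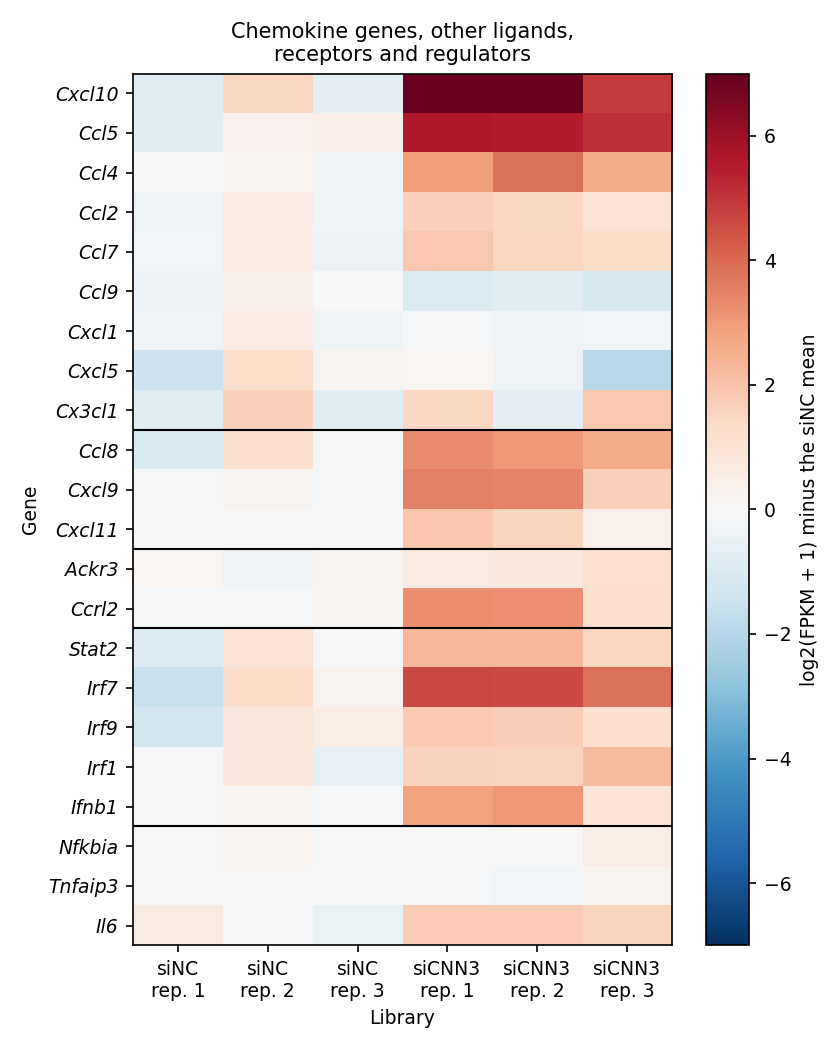
Level of each gene in each library as log2(FPKM + 1) minus the siNC mean of that gene, for the 9 chemokine genes, other ligands, receptors, interferon regulators and NF-κB-related genes, from top to bottom. Red is higher and blue is lower than the siNC mean, and siNC replicate 2 is above the siNC mean for Cxcl10, Stat2 and Irf7.

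Regulators of the interferon pathway are given beside the chemokines, and their part in the chemokine levels was not tested. All 11 of the list were listed and 10 tested. Of these, 1 was called higher and 0 lower, compared with 1.73% and 0.336% of all genes, with a median log2 fold change of 0.85. The 10 and the median include Ifnb1, described below, which passed the filter only through the siCNN3 group and so had to be higher there. Of the 9 others, 1 was called higher. The siCNN3 values lay wholly above the siNC values for 5 of the 10, Ifnb1 among them, compared with 13.8% of all genes. Irf7, a factor that amplifies interferon transcription, was at 0.796, 11.8 and 5.33 FPKM in the siNC cultures, against 131, 121.5 and 76.6 FPKM in the siCNN3 cultures (log2 fold change 4.36, adjusted p = 0.0305, limma). As for Cxcl10, siNC replicate 2 was the highest siNC library and siCNN3 replicate 3 the lowest siCNN3 library. With 1 library left out, Irf7 was called in 3 of 6 fits (adjusted p up to 0.126). Stat2, a transducer of type I interferon signals, was at 6.65, 27.8 and 13.6 FPKM in the siNC cultures, against 72.1, 72.5 and 41.5 FPKM in the siCNN3 cultures. Its groups did not overlap, and with a log2 fold change of 2.05 it was not called (adjusted p = 0.0910, limma). Ifnb1, the interferon beta gene, named after its values were seen, was at 0, 0.225 and 0 FPKM in the siNC cultures, against 6.60, 7.78 and 1.01 FPKM in the siCNN3 cultures (adjusted p = 0.0976, limma, not called), and it passed the filter only through the siCNN3 group. Ifngr1, a receptor subunit for interferon gamma and the gene of the list with the highest siNC mean, had a log2 fold change of -0.02 and was not called.

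Genes of NF-κB signaling and the cytokines of its targets were listed for 17 of 20, of which 16 were tested, 1 was called higher and 0 lower (median log2 fold change 0.16), compared with 1.73% and 0.336% of all genes. The siCNN3 values lay wholly above the siNC values for 3 of the 16, Il6, Lif and Csf1, compared with 13.8% of all genes. Il6, the called gene, was at 13.2, 7.59 and 5.66 FPKM in the siNC cultures, against 30.6, 30.7 and 26.7 FPKM in the siCNN3 cultures (log2 fold change 1.70, adjusted p = 0.0333, limma). It was called in 2 of 6 fits with 1 library left out (adjusted p up to 0.140). Nfkbia, the inhibitor that NF-κB itself induces, was at 65.0, 82.4 and 61.8 FPKM in the siNC cultures, against 67.5, 68.4 and 99.95 FPKM in the siCNN3 cultures, with overlap (log2 fold change 0.16, adjusted p = 0.734, limma). Csf1 and Nfkb2, the other abundant genes of the list, had log2 fold changes of 0.48 and 0.06 and were not called.

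Markers of other cell types were checked because leukocytes and endothelium also make chemokines. Of 19 blood and immune cell markers, 15 had no transcript listed, among them Ptprc, Adgre1, Csf1r and Cd3e, and were not analysed. The 4 listed, Cd14, Cd68, Lyz2 and Cd52, summed to 20.1 to 27.6 FPKM in the siNC cultures and to 16.3 to 19.5 FPKM in the siCNN3 cultures. Most of the sum was Cd14, which overlapped between the groups. Its level was 17.1 ± 4.13 FPKM in the siNC cultures and 14.4 ± 1.85 FPKM in siCNN3 (SD, n = 3). Cd68 and Lyz2, 2 of the 3 tested, lay wholly below the siNC values in siCNN3, compared with 9.35% of all genes, and were not called. The part of other cell types in the chemokine levels was not tested. Of 7 endothelial markers only Tek was listed, at 0.681 to 1.37 FPKM in the siNC cultures and 0.733 to 1.24 FPKM in the siCNN3 cultures. Muscle markers were lower in siCNN3, opposite in direction to the chemokines called higher. Of 11 markers of differentiating muscle, 10 were listed and 9 tested, and all 9 were lower in each siCNN3 library, with 3 called (Acta1, Tnnt3 and Myh3), compared with 9.35% of all genes wholly lower and 0.336% called lower. With 1 library left out, Acta1 was called in 6 of 6 fits, and Tnnt3 and Myh3 in 3 of 6 each (adjusted p up to 0.0847 and 0.112). Myh3, Mymk and Mymx passed the filter only through the siNC group, and of the 6 others all 6 were lower in each siCNN3 library and 2 were called. The summed level of the 10 listed muscle markers was 159 to 180.1 FPKM in the siNC cultures and 96.4 to 120.2 FPKM in the siCNN3 cultures. The part of differentiation in the chemokine levels was not tested.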

How the data were processed

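RNA of 3 siNC and 3 siCNN3 cultures was sequenced. The authors deposited FPKM for 24023 Ensembl transcripts. The submitters' processing notes name Bowtie 0.12.2 and the builds mm8 and mm10, without roles. The program that estimated FPKM and its annotation are not given in the sources used here. No read numbers are given, so the depth is unknown and no counting error can be stated. Identifiers without version matched GENCODE M21 (GRCm38) for 23949 transcripts, and the other 74 (0.159% to 0.220% of FPKM) were left out. FPKM was summed by symbol for 11835 genes.

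Genes below a mean of 0.5 FPKM over the libraries were left out, and log2(FPKM + 1) of the others entered limma 3.58.1 in R 4.3.3 (mean-variance trend, Benjamini-Hochberg adjustment over 11593 genes, threshold 0.05), and the fit was tested on simulated data. The genes and the 10 lists were chosen with earlier results of these data known. Some genes are not reported here, and the lists were counted without them. Named from a list were the called genes, at most 5, and the 3 most abundant. Single values and ratios used two-sided exact permutation tests. Alternatives were another pseudocount, filter, scaling or variance model, transcripts with failed estimates removed, the replicate number as a block, and each library left out. By a rule set here, an estimate counted as failed where a transcript had no FPKM in a library of a group that reached at least 10 FPKM in another. That held for 235 transcripts. Deviations from the group means of same-numbered libraries correlated at -0.28, 0.31 and -0.02, and those of siNC replicate 1 and siCNN3 replicate 3 at 0.44. With 3 libraries per group, these values cannot decide whether the numbers pair the libraries. Sequences were read with Python 3.11.15 and Biopython 1.88, and figures drawn with matplotlib 3.10.9.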

Additional observations from a re-analysis of the deposited data

How the results depend on the processing

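The directions of Cxcl10, Ccl5, Ccl4, Ccl2, Ccl7, Ccl9, Cxcl5 and Cx3cl1 were kept under the 15 alternatives run. Cxcl1 had a log2 fold change of -0.21, which was 0.084 without siNC replicate 2 and ranged from -0.37 to 0.084 with 1 library left out, and none of these values was called. Over these genes and alternatives, 113 results kept direction and call, 18 lost the call, 3 gained one and 1 turned. With no spread shared between genes, 0 chemokine genes were called higher, and 0 genes higher and 0 lower over all genes, and 0 chemokine transcripts were called. The number of chemokine genes called lower was 1 after quantile normalization. Over all genes, quantile normalization gave 93 lower genes and median-of-ratios scaling 63. Of the called genes, 68.2% and 77.7% were then higher, compared with 83.7% as reported. With 1 library left out, 1 to 5 chemokine genes were called higher and 0 to 0 lower, 16 to 444 genes higher and 4 to 161 lower over all genes, and 0 to 4 chemokine transcripts. The 16 came without siNC replicate 3 and the 444 without siCNN3 replicate 3. The replicate number as a block gave 62 higher and 6 lower genes, 3 chemokine genes higher and 0 chemokine transcripts. Whether the replicate numbers pair the libraries could not be decided. The causes of these differences were not tested.

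Few libraries limit the precision: an exact permutation test of 3 against 3 cannot go below 0.1, and Ccl7, Ccl2 and Ccl9 lay near the threshold. The filter at 5 FPKM and the removal of transcripts with failed estimates left the calls of Cxcl10, Ccl5 and Ccl4 in place, and Ccl7 lost its call under the latter (adjusted p = 0.0512, limma).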
